A study of Rattus norvegicus with 8 samples.

Results

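The genes described here carry the symbols of potassium and calcium channel subunits, together with Fgf12 and Cabp1, whose products bind sodium and calcium channels. They were chosen by name, as Fgf12, Cabp1 and every gene whose symbol begins as those of the potassium, sodium, calcium and hyperpolarization-activated channel families do. Of the 32623 gene IDs in the count data, 1998 could be paired with a symbol, and 13 of these met the rule. They were 7 potassium channel genes (Kcnj6, Kcnj12, Kcnc2, Kcnv1, Kcnh1, Kcnk2 and Kcnk10), 4 calcium channel genes (Cacna1e, Cacng1, Cacng4 and Cacng5), Fgf12 and Cabp1. The calcium channel genes are so called by symbol only, since Cacng4 and Cacng5 are known as auxiliary subunits of AMPA-type glutamate receptors. Sodium channel subunits and hyperpolarization-activated channels had no paired ID and were not analysed here. RNA was sequenced from retinal ganglion cells (RGCs), the neurons that send the axons of the optic nerve, of Sprague Dawley rats. The stages compared were embryonic day 21 (E21) and postnatal day 11 (P11), with 4 libraries each, every library came from a litter of its own rather than from a single animal, and the labels name no transgene and no treatment. The cells were purified by immunopanning, in which macrophages are removed on a first plate and RGCs are then caught on another by an anti-Thy1 antibody. RNA was measured in the whole preparation, so fewer cells of a type and less RNA per cell cannot be told apart.

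Potassium channels set the resting potential of a neuron and end its action potentials, sodium channels start them, and calcium channels couple the electrical signal to transmitter release and gene expression. Many of these channels are complexes of a pore-forming subunit with modifying or auxiliary subunits, so the mixture of subunits sets how a cell fires. Immature RGCs already fire action potentials, and they take on their mature firing patterns over the weeks in which synapses form and the eyes open.

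Promoter sequences from RefSeq (build GRCr8) were at hand for 8 of the 13 genes, as 12 windows of 300 bases that run from 250 bases before an annotated start to 50 bases after it. The build differs from Rnor_6.0, to which the reads were aligned, and RNA levels do not show which start was in use. The bases before the start are printed for Kcnj6, which had the largest rise from E21 to P11 of the 13 genes, and for the upstream of the Kcnk2 starts, the gene with the largest change in the other direction. The Kcnj6 stretch lies at chr11:47778349-47778598 and the Kcnk2 stretch at chr13:103494687-103494936, both on the minus strand and both written 5′ to 3′ toward the start.

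Kcnj6: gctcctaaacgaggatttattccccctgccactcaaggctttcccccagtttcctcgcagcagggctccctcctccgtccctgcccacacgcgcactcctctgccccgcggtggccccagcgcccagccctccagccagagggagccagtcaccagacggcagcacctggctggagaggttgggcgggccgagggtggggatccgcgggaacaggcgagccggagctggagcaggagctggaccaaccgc

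Kcnk2: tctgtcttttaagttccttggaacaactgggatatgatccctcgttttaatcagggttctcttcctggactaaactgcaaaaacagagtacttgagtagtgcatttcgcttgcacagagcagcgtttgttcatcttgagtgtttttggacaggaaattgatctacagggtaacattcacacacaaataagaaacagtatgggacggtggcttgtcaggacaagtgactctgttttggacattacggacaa

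Both strands of each window were searched for TGACGTCA, the palindrome bound by CREB family factors, for TGACG, which is the left part of that palindrome, and for TATAAA, the core of the TATA box. TGACGTCA occurs in 1.83% of all 33469 windows of the table, TGACG in 21.2% and TATAAA in 14.2%. Neither printed stretch holds any of these letters, so neither carries capitals. The only match in the 12 windows was 1 copy of TGACG, read on the opposite strand as CGTCA, that begins 12 bases after a start of Cabp1 at chr12:47093920-47093944 on the plus strand, where the match is in capitals.

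Cabp1: tgggcaactgCGTCAagtcgccact

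The windows differed in base composition, and the Kcnj6 window held 66.7% G and C while the Kcnk2 windows held 44.3% and 41.7%. The median of all windows was 51.7%, and the middle of the distribution, from the lower to the upper quartile, ran from 44.7% to 60.3%. The Kcnj6 window thus lay above that range and both Kcnk2 windows below it.

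Levels are given as CPM, the counts scaled to a common library size after TMM normalization, a scaling that sets the bulk of genes equal between libraries. They are not corrected for gene length and are compared between stages of the same gene, not between genes. The E21 libraries held 13899299 to 20116017 counted reads and the P11 libraries 14780002 to 17756824, and 3 counts, taken as the floor, corresponded to 0.152 to 0.219 CPM. A gene was called where edgeR's quasi-likelihood test gave an adjusted p below 0.01 and the change exceeded 1 on the log2 scale, with Benjamini-Hochberg adjustment over all 14043 genes tested. Fold changes are P11 over E21, so positive values mean higher at P11. Of the channel genes, 12 were tested and Cacng1 was under the expression filter. The levels of 11 would have passed it at either stage alone, and Kcnj6 passed through its P11 libraries, with 1 E21 library short of it.

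Markers of other retinal cells were read in the same libraries, as summed CPM over each list. The 5 vascular and mural markers summed to between 3.34 and 4.97 CPM at E21 and between 276 and 549 CPM at P11. Nearly all of the latter came from Rgs5 and Notch3. The 5 photoreceptor markers summed to 5.52 to 7.10 CPM and 22.8 to 36.7 CPM, the 4 bipolar markers to 41.4 to 49.0 CPM and 87.3 to 94.5 CPM, and the 4 glial markers to 1.27 to 1.52 CPM and 11.2 to 19.4 CPM. The higher bipolar sum came from Prkca, at 38.3 and 87.5 CPM on average, which other cells also make, while Grm6 averaged 5.97 and 3.37 CPM, Lhx4 0.842 and 0.400 CPM, and Pcp2 was near the floor. Most of the glial sum at P11 was Hes1, at 9.71 to 17.7 CPM, while Sox9 averaged 0.623 and 0.354 CPM and Gfap was at or below the floor in every library of both stages. Slc4a4, which other cells also make, averaged 0.452 and 1.40 CPM. Hes1 and Slc4a4 were both called higher at P11, and both passed the expression filter only through P11. The 4 amacrine markers, mostly Pax6, which RGCs also make, summed to between 443 and 477 CPM at E21 and between 330 and 347 CPM at P11. Among them Gad1 went from 0.856 to 13.8 CPM on average, Prox1 from 5.97 to 2.63 CPM and Slc6a4 from 20.9 to 16.5 CPM. Prox1 was called higher at E21, and the stages overlapped for Slc6a4. The 3 microglial markers summed to under 1 CPM in every library, and the 3 oligodendrocyte lineage markers to 36.3 to 46.8 CPM and 18.8 to 21.4 CPM. Of the neuronal markers, Rbfox3 averaged 119 and 126 CPM, Uchl1 1603 and 1382 CPM, and Gap43 1711 and 623 CPM, and the common RGC markers Pou4f1 and Rbpms had no paired ID. The part of these other cells in the results below was not tested.

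Of the 12 channel genes tested, 6 were called higher at P11, where 16.5% of all genes tested were, and 1 was called higher at E21, where 8.16% were. Kcnj6, Kcnj12, Kcnc2, Kcnv1, Fgf12 and Cabp1 rose, and Kcnk2 fell. Of these, Kcnj6 passed the expression filter only through P11. The other 5 also had an adjusted p below 0.01, with changes smaller than the fold threshold. By adjusted p alone, 9 genes were higher at P11, against 34.6% of all genes, and 3 were higher at E21, against 33.8%. None of the 12 genes had overlapping stages, since every P11 library was above every E21 library for 9, against 35.9% of all genes, and the reverse held for 3, against 35.4%. The median log2 fold change of the 12 was 0.95, while that of all genes tested was -0.0042. By part, it was 1.37 for the 7 potassium channel genes, 0.23 for the 3 calcium channel genes tested and 1.68 for Fgf12 and Cabp1.

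**Figure D1:**
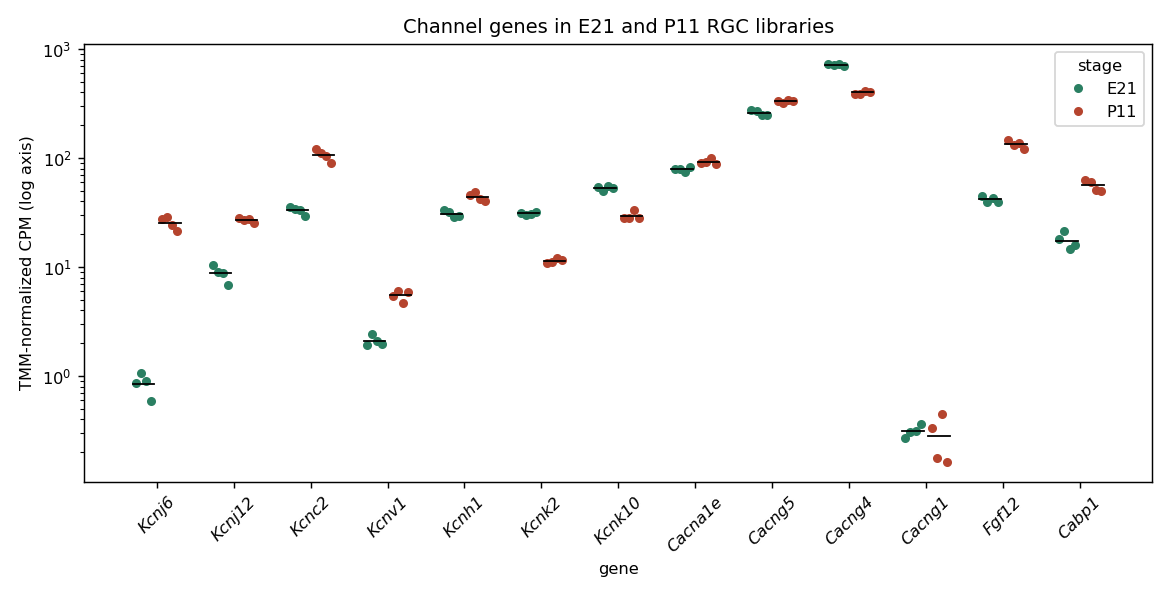
Each point is 1 library of RGCs at E21 (green) or P11 (red), plotted as TMM-normalized CPM on a log axis for the 13 channel genes, with a bar at the mean of each stage (n = 4); levels of different genes are not corrected for length. The stages are apart for every gene but Cacng1, and the widest gap is that of Kcnj6, from at most 1.06 CPM at E21 to at least 21.4 CPM at P11.

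**Figure D2:**
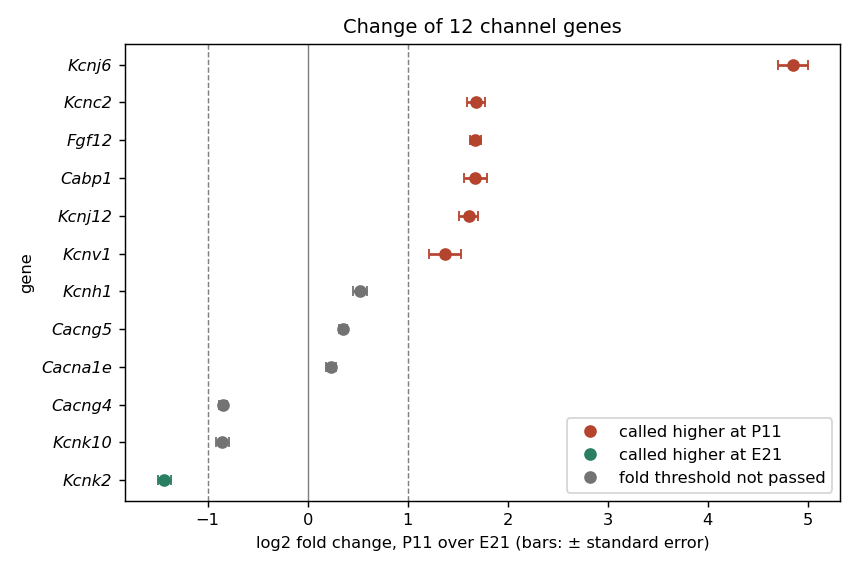
Points are log2 fold changes of P11 over E21 from edgeR with bars of ± 1 standard error for the 12 tested channel genes, and dashed lines mark the fold threshold of 1 in either direction. Kcnj6 at 4.85 stands far above the 5 other genes called higher at P11, which lie between 1.37 and 1.68, and Kcnk2 at -1.43 is the gene called higher at E21.

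Inward rectifiers pass potassium most easily near and below the resting potential and so hold a neuron there. Kcnj6 (ENSRNOG00000001658) encodes GIRK2, a subunit of the inward rectifiers that are opened by G protein βγ subunits when inhibitory receptors are engaged. Its level was 0.870, 1.06, 0.892 and 0.585 CPM in E21 replicates 1 to 4, from 8 to 21 counts per library, and 27.3, 28.5, 24.5 and 21.4 CPM in P11 replicates 1 to 4. The lowest P11 library was 20.1-fold above the highest E21 library. Its mean went from 0.853 ± 0.198 CPM to 25.4 ± 3.16 CPM (SD, n = 4), a log2 fold change of 4.85 with a standard error of 0.15 (adjusted p = 4.33e-14, edgeR), and 1.61% of all genes tested had a larger one. Kcnj6 passed the expression filter only through P11, where it is higher. Fitted without the filter, its log2 fold change was also 4.85. The same counts enter that fit, so this value says nothing about its passing the filter through P11.

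Kcnj12 (ENSRNOG00000002303) encodes a strong inward rectifier that needs no G protein to open. Its level was 10.5, 9.02, 8.87 and 6.87 CPM in E21 replicates 1 to 4 and 28.4, 27.0, 27.5 and 25.4 CPM in P11 replicates 1 to 4. The P11 libraries lay closer together, with a coefficient of variation of 4.65% against 16.9% at E21, and all were above the E21 libraries. Its mean rose 3.07-fold, a log2 fold change of 1.61 with a standard error of 0.10 (adjusted p = 1.29e-10, edgeR).

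Both rectifier genes rose, and the rise of Kcnj6 was the larger. The log2 ratio of Kcnj6 to Kcnj12 counts was -3.54, -3.05, -3.28 and -3.47 in the E21 libraries and -0.06, 0.07, -0.17 and -0.25 in the P11 libraries, so the Kcnj6 reads went from 0.0990 times those of Kcnj12 to 0.934 times. Gene length cancels in the change of such a ratio. The mean went from -3.34 ± 0.22 to -0.10 ± 0.14 (SD, n = 4), a 9.44-fold change of the ratio (exact permutation test, two-sided, p = 0.0286, which is the smallest p that 4 against 4 libraries allow and is the same after adjustment over the 3 ratios tested). Between any E21 and any P11 library the rise of Kcnj6 exceeded every rise of Kcnj12, so the ratios had to separate. This p therefore adds nothing to the levels.

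The voltage-gated potassium channel genes rose less than Kcnj6. Kcnc2 (ENSRNOG00000004077) encodes a channel that opens and closes fast at strong depolarization and lets neurons fire at high rates. Its level was 35.1, 34.2, 33.3 and 29.4 CPM in E21 replicates 1 to 4 and 119.96, 111, 104.5 and 89.2 CPM in P11 replicates 1 to 4. The P11 libraries were 2.54-fold or more above the E21 libraries, and the lowest library of each stage was replicate 4. The log2 fold change was 1.68 with a standard error of 0.09 (adjusted p = 2.14e-09, edgeR), which rose to 1.76 with a standard error of 0.06 without P11 replicate 4.

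Kcnv1 (ENSRNOG00000004117) encodes a subunit that forms no channel of its own and modifies those of other families when it joins them. Its level was 1.94, 2.43, 2.10 and 1.97 CPM in E21 replicates 1 to 4 and 5.44, 6.04, 4.70 and 5.89 CPM in P11 replicates 1 to 4. The libraries of the stages did not overlap, and levels were low at both. Kcnv1 rose with a log2 fold change of 1.37 and a standard error of 0.16 (adjusted p = 6.26e-07, edgeR). Against a null change of up to 1 on the log2 scale rather than 0, with edgeR's glmTreat, its adjusted p was 0.0222 and it was not called.

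Kcnh1 (ENSRNOG00000003841), the ether-à-go-go channel, was at 33.1, 31.6, 28.6 and 29.4 CPM in E21 replicates 1 to 4 and at 46.0, 48.3, 42.2 and 40.1 CPM in P11 replicates 1 to 4. All P11 libraries were higher. The difference of 0.52 on the log2 scale was short of the fold threshold, with a standard error of 0.07 (adjusted p = 2.70e-06, edgeR).

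Leak channels of the tandem pore domain family carry a background potassium current, and those encoded by Kcnk2 (TREK1) and Kcnk10 (TREK2) are opened by stretch, heat and fatty acids. Kcnk2 (ENSRNOG00000002653) was at 31.2, 30.1, 30.7 and 31.9 CPM in E21 replicates 1 to 4 and at 10.9, 11.1, 12.1 and 11.7 CPM in P11 replicates 1 to 4. The libraries within a stage lay close together, with coefficients of variation of 2.43% and 4.85%, and the lowest E21 library was 2.48-fold above the highest P11 library. The mean went from 31.0 ± 0.752 CPM to 11.5 ± 0.555 CPM (SD, n = 4), a log2 fold change of -1.43 with a standard error of 0.07 (adjusted p = 4.78e-12, edgeR), and 3.45% of all genes tested had a lower one.

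Kcnk10 (ENSRNOG00000003813) was at 54.1, 50.2, 55.6 and 52.9 CPM in E21 replicates 1 to 4 and at 28.0, 28.2, 33.3 and 28.4 CPM in P11 replicates 1 to 4. P11 replicate 3 was above the other P11 libraries, and it was still below every E21 library. The log2 fold change was -0.85 with a standard error of 0.06 (adjusted p = 2.28e-09, edgeR), which did not pass the fold threshold. The TREK genes thus both had lower levels at P11, and the change of Kcnk2 was the larger, since the log2 ratio of Kcnk2 to Kcnk10 was -0.79, -0.74, -0.85 and -0.73 in the E21 libraries and -1.36, -1.34, -1.46 and -1.28 in the P11 libraries. The ratio fell 1.49-fold (-0.58 on the log2 scale, exact permutation test, two-sided, p = 0.0286, also after adjustment over the 3 ratios). Between any E21 and any P11 library the fall of Kcnk2 exceeded every fall of Kcnk10, so here too the ratios had to separate and this p adds nothing to the levels.

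The reads on the 7 potassium channel genes were divided differently at E21 and at P11. Kcnk10 held 33.3% of them on average at E21 and 11.9% at P11, and Kcnk2 held 19.4% and 4.62%. Kcnc2 held 20.7% at E21 and 42.5% at P11, Kcnj12 held 5.50% and 10.9%, and Kcnj6 held 0.533% and 10.2%. The share of Kcnh1 moved least of the larger shares, from 19.2% to 17.7%, and Kcnv1 held 1.32% and 2.23%. These are shares of reads, which longer transcripts draw more of, and only their change between stages is compared. The summed level of the 7 genes was 153 to 167 CPM at E21 and 222 to 266 CPM at P11, 1.56-fold higher on average.

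**Figure D3:**
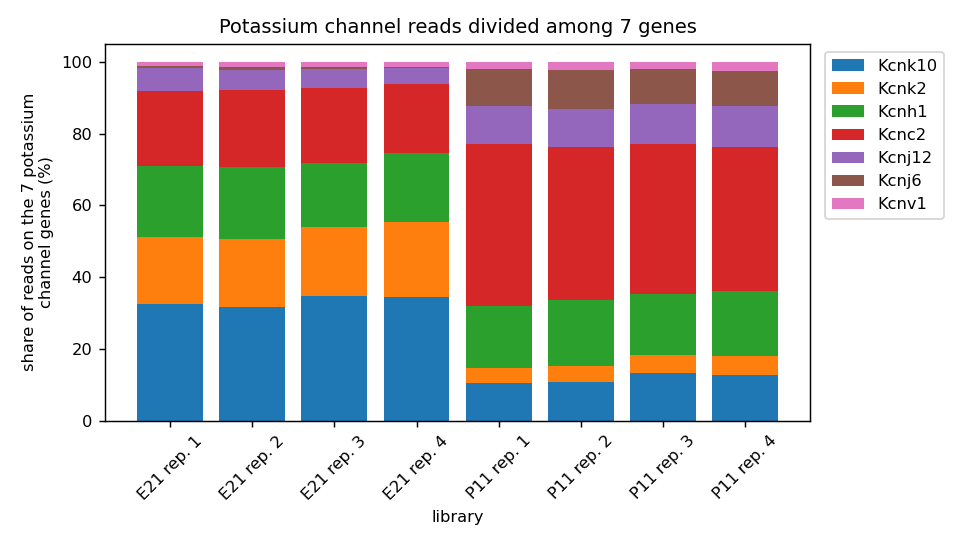
Stacked bars give, for each of the 8 libraries, the share in percent of the reads on the 7 potassium channel genes that fell on each gene, without correction for length. On average Kcnk10 shrinks from 33.3% to 11.9% and Kcnk2 from 19.4% to 4.62%, while Kcnc2 widens from 20.7% to 42.5% and Kcnj6 from 0.533% to 10.2%.

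The genes with a calcium channel symbol changed less. Cacna1e (ENSRNOG00000002863), the pore-forming subunit of R-type calcium channels, was at 79.1, 79.2, 75.1 and 81.8 CPM in E21 replicates 1 to 4 and at 90.1, 91.6, 99.6 and 88.5 CPM in P11 replicates 1 to 4. The stages were apart by a small margin, 1.08-fold between the nearest libraries. At 0.23, with a standard error of 0.05 (adjusted p = 3.42e-04, edgeR), its log2 fold change was the smallest in size of the 12.

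The γ subunits encoded by Cacng4 and Cacng5 are named for their likeness to a calcium channel subunit, and both are known as auxiliary subunits of AMPA-type glutamate receptors. Cacng4 (ENSRNOG00000003262) was at 729, 716, 723 and 697 CPM in E21 replicates 1 to 4 and at 385, 390.1, 414 and 407 CPM in P11 replicates 1 to 4. Its P11 libraries were all below its E21 libraries, with a log2 fold change of -0.84 and a standard error of 0.04 (adjusted p = 3.70e-12, edgeR). Cacng5 (ENSRNOG00000003288) was at 275, 269, 249 and 245 CPM in E21 replicates 1 to 4 and at 334, 319.7, 342 and 332 CPM in P11 replicates 1 to 4. It went the other way, with a log2 fold change of 0.35 and a standard error of 0.04 (adjusted p = 1.27e-06, edgeR).

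Neither γ subunit gene passed the fold threshold alone, and they moved in opposite directions. The log2 ratio of Cacng5 to Cacng4 was -1.41, -1.41, -1.54 and -1.51 in the E21 libraries and -0.21, -0.29, -0.28 and -0.30 in the P11 libraries. The ratio rose 2.30-fold, from 0.362 to 0.831 (1.20 on the log2 scale, exact permutation test, two-sided, p = 0.0286, also after adjustment over the 3 ratios). Since every P11 library was higher for Cacng5 and lower for Cacng4, the ratios had to separate. This p therefore adds nothing to the levels. Cacng1 (ENSRNOG00000003245), the γ subunit of the skeletal muscle calcium channel, had 4, 6, 6 and 5 counts in E21 replicates 1 to 4 and 5, 3, 7 and 3 counts in P11 replicates 1 to 4. It was near the floor at both stages, and no difference was detectable at this depth. Cacna1e, the pore-forming subunit among the 4 genes with a calcium channel symbol, averaged 78.8 CPM at E21 and 92.4 CPM at P11. The summed level of the 4 was 1024 to 1083 CPM at E21 and 801.5 to 855 CPM at P11, a ratio of 0.781, most of it from Cacng4. With the potassium channel genes, Fgf12 and Cabp1 added, the sum of all 13 was 1233 to 1313 CPM at E21 and 1220 to 1291 CPM at P11, so the totals overlapped while the libraries of each of the 12 tested genes did not.

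**Figure D4:**
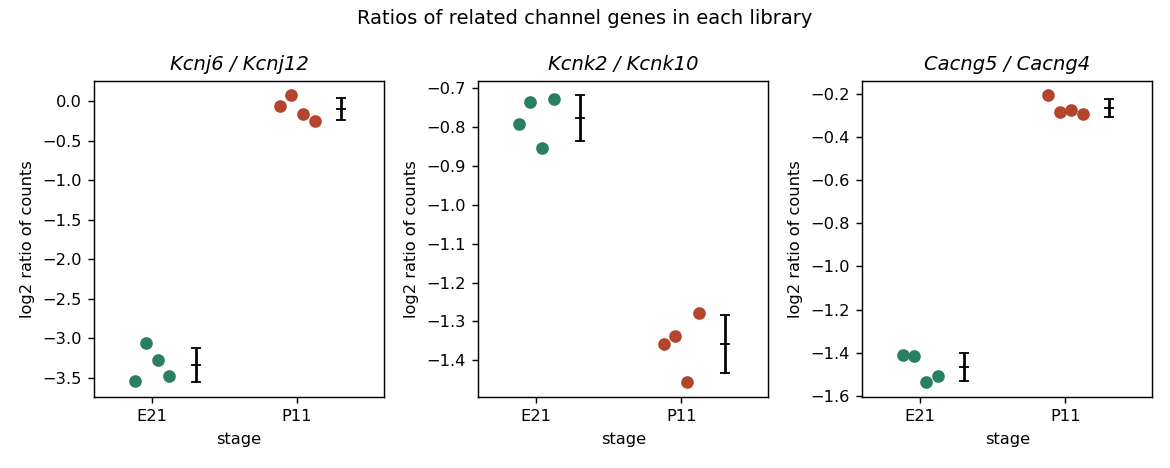
Points give the log2 ratio of the counts of related genes in each library at E21 (green) and P11 (red), with the mean ± SD (n = 4) beside them, and each panel has its own vertical scale. The stages are apart in all 3 panels, by 3.24 for Kcnj6 to Kcnj12, -0.58 for Kcnk2 to Kcnk10 and 1.20 for Cacng5 to Cacng4.

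Fgf12 and Cabp1 encode proteins that bind channels from the inside of the cell. Fgf12 (ENSRNOG00000001931) is a fibroblast growth factor homologue that stays in the cell, binds the tail of voltage-gated sodium channels and shifts their inactivation. Its level was 44.4, 39.8, 42.8 and 39.6 CPM in E21 replicates 1 to 4 and 145, 132, 136 and 120.3 CPM in P11 replicates 1 to 4. The lowest P11 library was 2.71-fold above the highest E21 library. Its mean rose 3.20-fold, a log2 fold change of 1.68 with a standard error of 0.06 (adjusted p = 1.68e-13, edgeR).

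Cabp1 (ENSRNOG00000001173) is a calcium sensor related to calmodulin that slows the inactivation of calcium channels and inhibits inositol trisphosphate receptors. Its level was 18.1, 21.2, 14.6 and 15.9 CPM in E21 replicates 1 to 4 and 62.9, 60.1, 50.8 and 50.3 CPM in P11 replicates 1 to 4. Both stages were spread more than those of Fgf12, and they did not overlap. Its mean rose 3.21-fold, a log2 fold change of 1.68 with a standard error of 0.11 (adjusted p = 4.87e-08, edgeR). Kcnc2, Fgf12 and Cabp1 thus each had a log2 fold change of 1.68.

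The order of the libraries within P11 differed between genes, but the same library was often the lowest. P11 replicate 4 was the lowest P11 library for 7 of the 12 tested genes and the highest for 0, and it was the lowest for 5 of the 6 genes that rose. In all 6 it was still above every E21 library. The same library had the highest vascular and mural marker sum, 549 CPM against 276 to 457 CPM in the other P11 libraries, the lowest neuronal marker sum, 2047 CPM against 2140 to 2176 CPM, and the lowest Gad1 level, 10.2 CPM against 13.4 to 18.4 CPM. The other amacrine markers, Pax6, Prox1 and Slc6a4, were instead highest in it among the P11 libraries, at 311, 3.05 and 23.0 CPM. Of the neuronal markers, Uchl1 and Rbfox3 were lowest in P11 replicate 4, at 1291 and 117 CPM. Gap43, at 639 CPM, and Atoh7, at 0.545 CPM, were not. The part of these differences in the levels of the channel genes in P11 replicate 4 was not tested. Without that library the same number of genes was called, 6 higher at P11 and 1 higher at E21, and the log2 fold change of Kcnj6 was 4.93, that of Fgf12 was 1.73 and that of Cabp1 was 1.73. At E21, replicate 4 was the lowest library for 6 of the 12 genes and replicate 1 was the highest for 6.

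Genes that act with channels were read from lists made by symbol for their known roles, 49 genes of which 43 were tested. Only the 1998 IDs paired with a symbol could enter these lists, so they leave out partners without a paired ID. Of these, 11 were called higher at P11, against 16.5% of all genes tested, and 0 were called higher at E21, against 8.16%. Among the 11, Itpr2 and Calhm5 passed the expression filter only through P11, where they are higher. At an unadjusted p below 0.05 in edgeR, 8 of the 43 had a higher level at E21, against 38.6% of all genes, and 28 had a higher level at P11, against 38.7%, and DESeq2 also called 0 of them higher at E21. Their median log2 fold change was 0.48, against 0.95 for the channel genes and -0.0042 for all genes.

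Calcium handling genes move calcium across the outer membrane and the stores or carry it. Of 13, 12 were tested and 3 were called higher at P11, where 16.5% of all genes tested were, and the median log2 fold change was 0.57. Slc8a2, a sodium-calcium exchanger of the outer membrane, was at 101, 95.2, 110.4 and 91.6 CPM in E21 replicates 1 to 4 and at 388, 368, 385 and 373 CPM in P11 replicates 1 to 4. It rose in all P11 libraries, with a log2 fold change of 1.93 and a standard error of 0.05 (adjusted p = 9.07e-15, edgeR). Itpr2, an inositol trisphosphate receptor that releases calcium from the stores, rose from 1 to 8 counts per E21 library to 3.81 ± 1.20 CPM at P11 (log2 fold change 3.73, standard error 0.35, adjusted p = 5.90e-08, edgeR), and it passed the expression filter only through P11. The highest Itpr2 level, 5.56 CPM, was in P11 replicate 4. Slc8b1, the mitochondrial sodium-calcium exchanger, rose from 1.39 ± 0.446 CPM to 3.13 ± 0.616 CPM (log2 fold change 1.15, standard error 0.24, adjusted p = 3.28e-04, edgeR). Of the other 9 genes tested, 6 had an adjusted p below 0.01 with a smaller positive change and 3 did not.

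Proteins that hold channels in place or work beside them had 7 genes, all tested. Of these, 3 were called higher at P11, where 16.5% of all genes tested were, and the median was 0.70. Tnr, the matrix protein tenascin-R of perineuronal nets and nodes of Ranvier, was at 6.83, 6.59, 4.93 and 4.90 CPM in E21 replicates 1 to 4 and at 152, 143, 149 and 127 CPM in P11 replicates 1 to 4. Its log2 fold change of 4.61, with a standard error of 0.09 (adjusted p = 1.35e-14, edgeR), stands beside the 4.85 of Kcnj6. Atp1b1, the β subunit of the sodium pump, rose from 158 ± 22.7 CPM to 1327 ± 102 CPM (log2 fold change 3.06, standard error 0.11, adjusted p = 2.92e-09, edgeR). Cntn1, the adhesion molecule contactin, rose from 237 ± 14.5 CPM to 747 ± 19.9 CPM (log2 fold change 1.66, standard error 0.05, adjusted p = 1.22e-14, edgeR). Of the 4 genes not called, 2 had an adjusted p below 0.01 with a positive change, 1 with a negative one and 1 did not.

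G protein signalling genes, among them receptors and regulators that act on the channels of Kcnj6, had 12 of 14 genes tested. Of these, 3 were called higher at P11, where 16.5% of all genes tested were, and the median was 0.22. Adora1, the adenosine A1 receptor, an inhibitory receptor that opens such channels, was at 6.23, 5.73, 6.87 and 4.46 CPM in E21 replicates 1 to 4 and at 319.9, 393, 290.3 and 281 CPM in P11 replicates 1 to 4. All P11 libraries were far above E21, with a log2 fold change of 5.77 and a standard error of 0.16 (adjusted p = 3.45e-09, edgeR). Rgs8, which speeds the closing of G protein-gated channels, rose from 64.1 ± 10.3 CPM to 172 ± 7.73 CPM (log2 fold change 1.42, standard error 0.10, adjusted p = 4.89e-07, edgeR). Rgs5, a regulator of the same family that is also a marker of mural cells, rose from 1.47 ± 0.774 CPM to 232 ± 69.8 CPM (log2 fold change 7.38, standard error 0.42, adjusted p = 3.62e-06, edgeR) and was highest in P11 replicate 4, the library with the highest vascular marker sum. Of the 9 genes not called, 3 had an adjusted p below 0.01 with a positive change, 3 with a negative one and 3 did not.

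Channels of other families had 12 of 15 genes tested and 2 called higher at P11, where 16.5% of all genes tested were, with a median of 0.23. Tmem175, a potassium and proton channel of lysosomes, rose from 28.3 ± 0.891 CPM to 72.4 ± 3.20 CPM (log2 fold change 1.35, standard error 0.05, adjusted p = 5.61e-13, edgeR). Calhm5, of the calcium homeostasis modulator family, had 0 to 4 counts per E21 library and 11 to 16 per P11 library. It was called (adjusted p = 6.06e-04, edgeR), but it passed the expression filter only through the stage where it is higher, and no fold is given at such counts. Of the 10 genes not called, 5 had an adjusted p below 0.01 with a positive change, 1 with a negative one and 4 did not. Rest, a repressor of many neuronal genes that include channel genes, was at 7.16, 7.09, 8.19 and 7.09 CPM in E21 replicates 1 to 4 and at 3.70, 5.09, 4.63 and 7.85 CPM in P11 replicates 1 to 4. P11 replicate 4 lay within the E21 levels and the others below them, and the gene was not called (log2 fold change -0.46, standard error 0.18, adjusted p = 0.0321, edgeR).

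**Figure D5:**
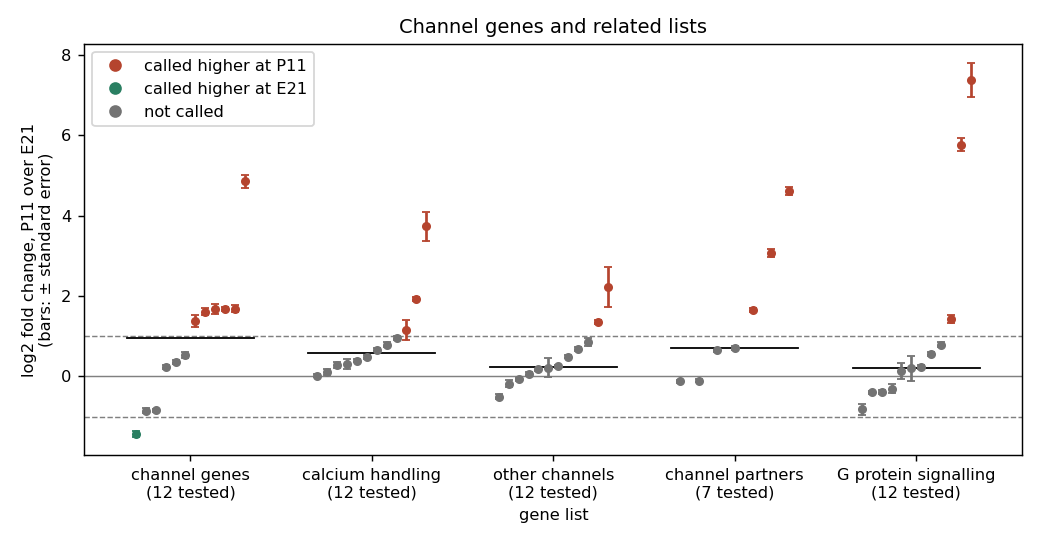
Points are log2 fold changes of P11 over E21 with bars of ± 1 standard error (edgeR) for the tested channel genes and for 4 lists of related genes, black lines are the medians of the lists, and dashed lines mark a change of 1 in either direction. The median of the channel genes, 0.95, joins unlike parts. It is 1.37 for the 7 potassium channel genes, 0.23 for the 3 calcium channel genes tested and 1.68 for Fgf12 and Cabp1. Kcnk2 is the only gene called higher at E21 among those plotted.

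The genes whose levels ran most like those of Kcnj6 and Kcnk2 were sought among 1778 named genes tested, by the Euclidean distance between log2 CPM values, with 0.1 CPM added, centred on each gene's mean over the 8 libraries. Nearest to Kcnj6 were Tnr at a distance of 0.53, Pcp4 at 0.64 and Tmem114 at 0.71. Pcp4, a calmodulin-binding peptide, averaged 18.1 and 420.1 CPM at E21 and P11, and Tmem114 averaged 0.0258 and 3.45 CPM. No E21 library held more than 1 count of Tmem114, below the floor, so its distance rests on the 0.1 CPM added and on its P11 level. Nearest to Kcnk2 were Mgat4c at 0.12, Gap43 at 0.12 and Cracd at 0.15, with log2 fold changes of -1.49, -1.46 and -1.46 beside the -1.43 of Kcnk2. Gap43, a protein of growth cones, averaged 1711 and 623 CPM at these stages, and Cracd, a regulator of actin capping, 532 and 193 CPM. The libraries of each stage share the contrast, so such likeness is mostly a likeness of the change between stages.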

How the data were processed

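Reads from the RGC libraries of 8 litters were trimmed by the authors with Cutadapt 1.16, filtered with PRINSEQ, aligned with STAR 2.5.3a to Rnor_6.0 and counted per Ensembl gene with HTSeq 0.6.1. The deposited values are whole-number counts per gene, not normalized or pooled. The annotation release and strand setting are not given in the sources used here, so overlapping genes may share reads. HTSeq set aside 37.4% to 42.2% of reads at E21 and 31.7% to 36.3% at P11 as not uniquely aligned, so the stages did not overlap in this share. A further 15.4% to 19.2% lay outside genes and 0.610% to 0.805% were ambiguous. All these entries were left out of the library sizes. All libraries were sequenced in the same lane per the labels.

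Symbols came from the part at hand of the study's gene table. Counts were filtered with filterByExpr, scaled by TMM and fitted with edgeR 4.0.16 (glmQLFit with robust estimation) in R 4.3.3, over all genes, with Benjamini-Hochberg adjustment. Each standard error is the size of the change over the root of its F statistic. Ratios used the counts as deposited with 0.5 added and exact permutation tests over libraries (numpy 2.4.6). The test was tried on simulated data first. The alternatives were DESeq2 1.42.0, its size factors, library size alone, no filter beyond 1 count, glmTreat, the replicate number as a block, each library left out and, for ratios, 3 added to each count.

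The members, the lists of related genes and the marker lists were chosen with earlier results of these data known. The text names all channel genes, up to 3 called genes with the largest changes per direction in each list, Rest and the 3 nearest genes to the largest changes. Markers and the genes of library checks are named beside the results they touch. Columns of the authors' comparisons in their gene table were not used. A planned search of protein sequences was not run, since none were used here.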

Additional observations from a re-analysis of the deposited data

Results flagged for a closer look

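Among the 24 sets of 4 libraries checked, which were the 12 tested channel genes at each stage, 1 held a library far from the rest by Dixon's criterion. The Kcnk10 level in P11 replicate 3 was 33.3 CPM, and the other P11 libraries were between 28.0 and 28.4 CPM. The gap made up 0.925 of the range of the 4 libraries, above the 95% critical value. Chance alone flags about 1 in 20 such sets.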

How the results depend on the processing

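The channel genes called higher at P11 numbered 6 under each alternative except glmTreat, which called 5 and lost Kcnv1 (log2 fold change 1.37, adjusted p = 0.0222). Kcnk2 was the 1 gene called higher at E21 throughout. Leaving out each library in turn left 6 and 1 calls, with log2 fold changes of 4.72 to 4.99 for Kcnj6 and -1.45 to -1.40 for Kcnk2, and with changes of the log2 ratios of 3.17 to 3.33 for Kcnj6 to Kcnj12, -0.61 to -0.55 for Kcnk2 to Kcnk10 and 1.18 to 1.22 for Cacng5 to Cacng4. The related genes called higher at P11 numbered 9 with glmTreat to 14 without the filter, and 0 were called higher at E21. The sources do not state that libraries of the same replicate number are paired. Deviations of same-numbered libraries correlated at -0.0268 to 0.078, and those of the other combinations at -0.0931 to 0.0661. Such small correlations cannot decide whether the libraries were paired. As a block the replicate numbers changed no call of edgeR. As pairs they gave the same changes of the log2 ratios, 3.24, -0.58 and 1.20, with an exact sign-flip p of 0.125, the smallest that 4 pairs allow. Of the levels, those of Kcnj6 at E21, from 8 to 21 counts, and of Cacng1 are the most limited by depth.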
